A study of Zea mays with 16 samples.

Results

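Roots of the waterlogging-susceptible maize (Zea mays) inbred line V-372, sampled after recovery from waterlogging, were compared with roots of the same line before stress. The comparison took 4 arrays of the 16 in the series, chosen by their labels: 2 arrays of recovery roots and 2 of control roots. Control roots were collected 28 days after sowing from plants watered daily in pots of sandy loam and never flooded. Recovery roots were collected on day 42, from pots sealed at the base on day 29, held under 5 cm of standing water for 7 days and drained on day 35. These days follow the labels, whereas the paper's text puts the removal of the seal on day 42, so the time the roots had to recover is not settled. The remaining arrays hold V-372 roots after 4 days (day 32, moderate stress) and 7 days of waterlogging (day 35, severe stress) and the same 4 stages of the tolerant line HKI1105, with 2 arrays in each group. Unstressed roots were taken on day 28 alone, so recovery and plant age changed together and cannot be told apart.

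A flooded soil holds little oxygen, and root cells then make energy by glycolysis and fermentation in place of respiration. Maize roots under water slow their growth, loosen cortical cell walls as gas spaces form and switch on genes for ethanol and lactate production. When the soil drains, oxygen returns, reactive oxygen has to be removed, and new roots replace those that died. The comparison shows which transcripts differed from the unstressed level after drainage. Each transcript was measured by a probe set, a group of short oligonucleotides on the Affymetrix GeneChip Maize Genome Array, and its level is given on the log2 scale of the GCRMA background correction and normalization, so that a difference of 1 is a doubling.

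The arrays of each group were close to each other. The correlation was 0.9987 between the control arrays, 0.9981 between the recovery arrays and 0.945 to 0.947 between the groups, and the array medians lay between 7.08 and 7.16. The lowest value that the background correction leaves was a floor of 2.01, and 67.1% to 67.4% of the probe sets exceeded it by over 1 log2 unit. Of the 113 Affymetrix control probe sets none differed 5-fold between the groups, but those for the 5′ ends of several maize transcripts did change. Recovery minus control was 2.21 for the 5′ and 0.01 for the 3′ probe set of Gapdh, 1.52 and 0.30 for those of ubiquitin, and 1.33 and 0.01 for those of cyclophilin. The actin 3′ control probe set changed by -2.31 and that for the 5′ end of the added phe poly-A RNA by -2.29. For ef1a, near the floor at its 5′ end in the control, the 5′ probe sets changed by 1.93 and 1.11 and the 3′ one by 0.61. The 5′ and poly-A changes are signs of RNA or labelling quality that moved with the groups. Their part in the results was not tested. The actin control is a 3′ probe set, and actin probe sets among those tested fell too, as given below. Replicates are biological according to the labels but technical according to the paper, and nothing ties them to separate plants, so each p-value sets a difference against the spread of these arrays alone, which may be technical. All 16 arrays were fitted with limma to give a common estimate of that spread.

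At recovery, 520 of the 17621 probe sets tested (2.95%) were up and 650 (3.69%) were down against the control, at a p of at most 0.001 in limma's test and a change of 5-fold or more. For each of these 1170 probe sets both recovery arrays lay beyond both control arrays, which was true of 63.5% of all probe sets. A rise of 10-fold or more was measured for 300 probe sets and a fall of that size for 278, and 41 rose and 14 fell by 100-fold or more. The median change was 3.54 among those up, -3.13 among those down and 0 over all probe sets. At an adjusted p under 0.05, with no limit on the fold, 4091 probe sets (23.2%) were higher and 4140 (23.5%) were lower, and "rose" and "fell" below refer to this test. The control level was within 1 log2 unit of the floor for 179 (34.4%) of the probe sets up, and the recovery level for 121 (18.6%) of those down, so these folds depend on the background level. Where both arrays of a group lie at the floor, they show no spread, and the SE rests on the other arrays.

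**Figure D1:**
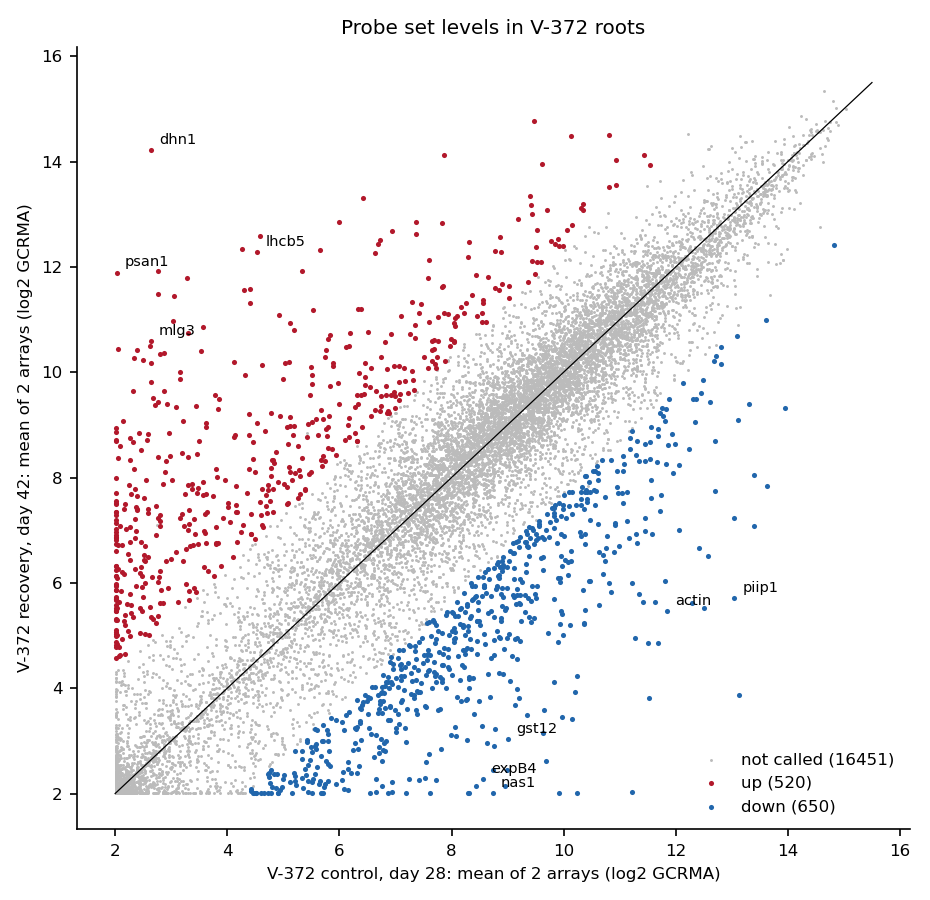
Mean level of each probe set in V-372 control roots (x axis, 2 arrays, log2 GCRMA) and V-372 recovery roots (y axis, 2 arrays, log2 GCRMA). Red points are the 520 probe sets up, blue points the 650 down and grey points the rest, and the line marks equal levels. The scatter of grey points follows the line over the whole range, and many red points start from the floor at the left edge.

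The 520 probe sets up had a median level of 4.27 in control roots, 7.08 at moderate stress, 9.06 at severe stress and 8.57 at recovery. Those down had medians of 8.49, 7.80, 6.89 and 4.95 in the same order. The medians of all probe sets were 7.14, 7.18, 7.15 and 7.08. Of the calls, 110 up and 81 down had a gene symbol. These were 104 genes up and 73 down. The 12 largest rises and the 12 largest falls among them are shown by array in the plot of named genes. Among the 1506 probe sets with a symbol, 235 were named from the study's tables of genes called against the same control arrays. More V-372 genes were mapped there than the paper counts at its stress stages, so calls at recovery appear to be included. The names were thus chosen on these samples, in part, it seems, by the recovery change itself. Of the 1506, 28.7% rose, 26.9% fell, and 110 were up and 81 down 5-fold or more, larger shares than over all probe sets. The shares of all probe sets given below are thus a low baseline for lists of named genes.

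**Figure D2:**
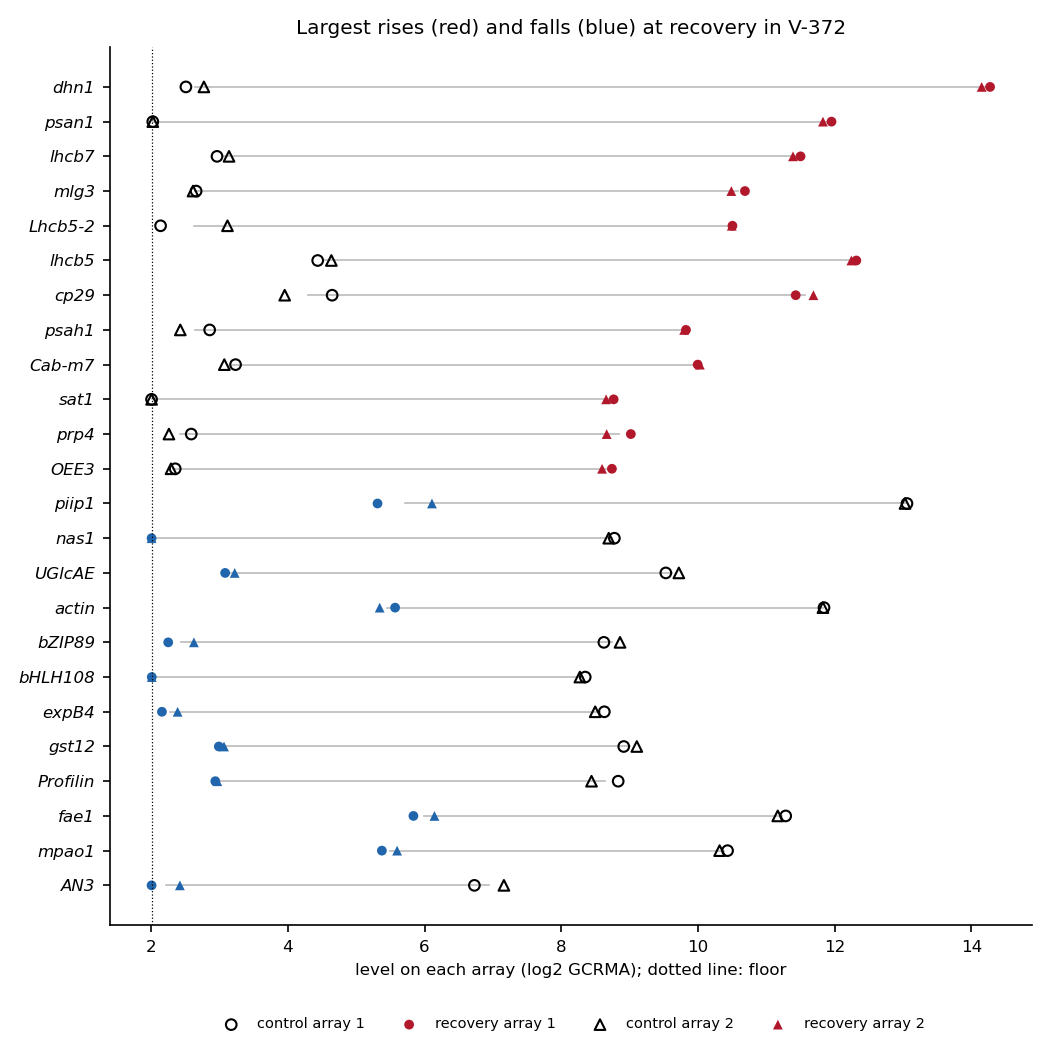
Level of each named gene on each array (x axis, log2 GCRMA). Open symbols are the control arrays and filled symbols the recovery arrays, red for the 12 largest rises and blue for the 12 largest falls, and the dotted line is the floor of 2.01. In every row the filled and open symbols stand clear of each other.

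Genes of desiccation tolerance were among the largest rises. The dehydrin gene dhn1, also known as rab17, whose product protects drying cells and answers to abscisic acid, stood at 2.51 and 2.77 on the control arrays and at 14.27 and 14.15 on the recovery arrays. Its rise of 11.57 ± 0.44 (SE) was the largest of all probe sets (adjusted p = 7.62e-08). It had reached 13.62 by severe stress, and recovery exceeded severe stress by only 0.59 (adjusted p = 0.348). The gene mlg3, for a group 3 late embryogenesis abundant (LEA) protein, followed another course. It was at 2.66 and 2.61 in control roots, 4.22 and 4.41 as means of moderate and severe stress, and 10.69 and 10.49 at recovery. The gain of mlg3 over severe stress was 6.18 (adjusted p = 1.17e-08).

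All 11 probe sets of the list of dehydrins, LEA proteins and raffinose sugar genes rose, and 4 of them were up 5-fold or more, against 23.2% and 2.95% of all probe sets. AGA1, whose alpha-galactosidase removes galactose from raffinose sugars, rose from 2.78 on both control arrays to 5.92 and 6.30 (change 3.33 ± 0.10). The 3 probe sets of dhn2, a dehydrin already abundant in control roots, rose by 1.15 to 1.32. For dhn1 the rise in HKI1105 was 10.42, and the difference between the lines was 1.15 ± 0.62 (adjusted p = 0.176). AGA1 rose by 10.62 in HKI1105, and the response of V-372 minus that of HKI1105 was -7.30 ± 0.14 (adjusted p = 1.55e-09).

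Of the 12 largest rises with a gene symbol, 8 were nuclear genes of the photosystems and their antenna proteins. Light-harvesting proteins bind chlorophyll around photosystems I and II, and rubisco and the C4 cycle enzymes fix carbon dioxide in maize leaves. psan1, which encodes a photosystem I subunit, was at 2.02 on both control arrays and at 11.95 and 11.83 on the recovery arrays (change 9.87 ± 0.17, adjusted p = 8.99e-10). lhcb7, a chlorophyll a/b binding protein gene, rose from 2.96 and 3.14 to 11.50 and 11.39. Both genes were already high under stress, at 10.37 and 11.72 at moderate and 13.46 and 14.22 at severe stress. Recovery minus severe stress was -1.57 for psan1 (adjusted p = 5.55e-05) and -2.78 for lhcb7 (adjusted p = 3.17e-09).

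Of 22 probe sets for light harvesting and photosystems, 16 rose, none fell and 13 were up 5-fold or more, with a median change of 4.23. Over all probe sets these shares were 23.2%, 23.5% and 2.95%. The names of 8 of the 22 come from the study's calls against the same control arrays. These 8 are no independent evidence of direction. Others of the list were lhcb5 (4.44 and 4.64 to 12.32 and 12.24), cp29, a minor antenna protein of photosystem II (change 7.26 ± 0.26), psah1 of photosystem I (7.17 ± 0.12) and OEE3 of the oxygen-evolving complex (6.35 ± 0.21). Among the C4 cycle and rubisco probe sets 7 of 14 rose and 3 fell. The rubisco small subunit gene rbcs1 rose from 4.99 and 5.25 to 10.89 and 10.97, and rca1, for the activase that keeps rubisco working, from 2.01 on both arrays to 6.40 and 6.24. Of the plastid-encoded probe sets, all 21 of which were named by the study's calls, 10 rose and none fell. With only the 4 arrays of the comparison 6 rose, and without recovery replicate 1 there was 1 that fell. The list includes rbcL, the rubisco large subunit, whose 3 probe sets rose by 0.93 to 4.43.

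The C4 cycle genes did not move as a group. pep1, the C4 form of phosphoenolpyruvate carboxylase that makes the first product of the cycle, was at 3.05 and 2.41 in control roots and at the floor of 2.01 on both recovery arrays (change -0.73 ± 0.29, adjusted p = 0.0752). At severe stress it had stood at 11.16, and recovery minus severe stress was -9.15 (adjusted p = 1.84e-08). me3, the NADP-malic enzyme of the bundle sheath, rose from 3.96 and 3.97 to 6.26 and 6.02, after 12.75 at severe stress. lhcb4 was at 2.01 on every control and recovery array, although it had reached 10.06 at severe stress. Of 5 probe sets of pdk1, pyruvate phosphate dikinase, 3 fell by 0.23 to 0.98 and none rose.

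The samples are labelled as roots, and markers of green, root and seed tissue were set beside them. The summed linear level of 22 green-tissue probe sets, from 14 genes, had a log2 of 11.80 to 11.86 on the control arrays, 14.86 to 14.89 at moderate stress, 17.28 to 17.34 at severe stress and 14.20 on both recovery arrays. Within 1 log2 unit of the floor lay 10 of them in control and 6 in recovery roots, pep1 and lhcb4 among the latter. In HKI1105 the same sum was 12.52 and 12.54 in control and 11.89 and 11.97 in recovery roots. The brightest green-tissue probe sets in V-372 control roots were those of pdk1, with means of 8.48 to 10.58 besides 1 at the floor. mdh6 followed at 6.98, so the sum in V-372 control roots mostly follows pdk1. Of 18 root probe sets, from 8 gene names, 2 rose (both Lsi1) and 10 fell, and their sum went from 15.56 to 15.58 down to 12.31 to 12.35. The seed probe sets, 14 in number, lay near the floor in 13 cases in both groups. In bulk tissue a change in the mix of cells and a change in RNA per cell cannot be told apart, and the part of green cells in these rises was not tested.

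Outside the gene lists, further chloroplast genes rose, and they are named here after their values were seen. gpa1, subunit A of the chloroplast glyceraldehyde-3-phosphate dehydrogenase, rose by 5.98 ± 0.17. por, for the protochlorophyllide reductase of chlorophyll synthesis, rose by 5.87 ± 0.14, and sig1, a sigma factor for the plastid RNA polymerase, by 5.82 ± 0.17. In HKI1105 the changes of these 3 genes were -2.83, 0.07 and -0.24.

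**Figure D3:**
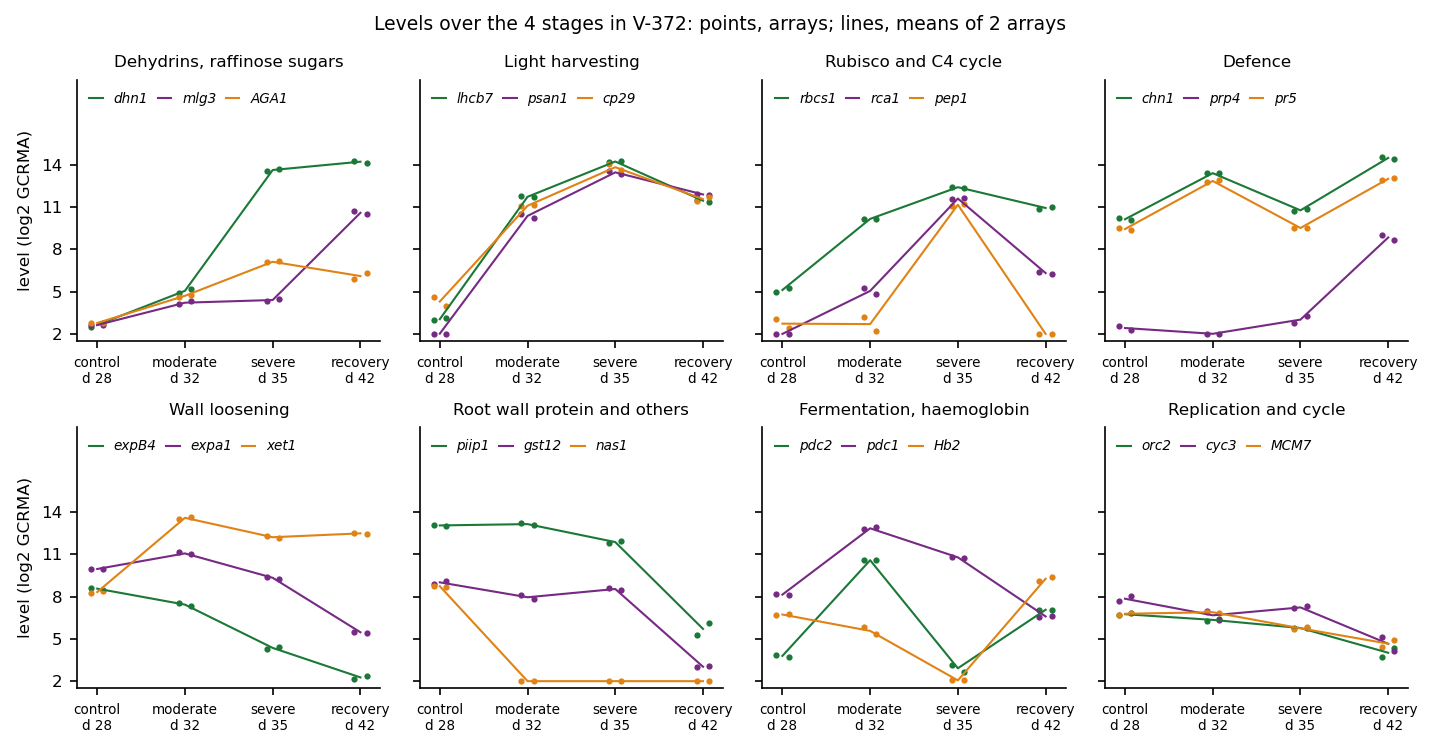
Levels of 24 genes of 8 groups in V-372 at control, moderate stress, severe stress and recovery (x axis, with the day after sowing), on the log2 GCRMA scale (y axis). Points are single arrays and lines join the means of 2 arrays. The photosystem genes are high at all later stages, pep1 peaks at severe stress alone, and mlg3 and prp4 are high at recovery alone.

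Most probe sets for defence genes were higher at recovery. Plants make chitinases, glucanases and protease inhibitors against fungi and insects, and the named pathogenesis-related (PR) proteins are markers of that state. Of 35 probe sets, 24 rose, 2 fell (1 without recovery replicate 2) and 11 were up 5-fold or more, with a median change of 1.0. Of all probe sets 23.2% rose and 2.95% were up 5-fold. Names from the study's calls account for 12 of the 35. prp4, a PR-1 type gene, was at 2.59 and 2.26 in control roots and at 9.02 and 8.66 at recovery (change 6.42 ± 0.38, adjusted p = 1.09e-06). It had stood at 2.01 and 3.02 at moderate and severe stress, so the high level was seen at recovery alone. The chitinase gene chiA rose from 6.69 and 6.70 to 12.46 and 12.41, and chn1, another chitinase, from 10.20 and 10.07 to 14.53 and 14.43. pr5, for a thaumatin-like protein, rose by 3.56 ± 0.29, and the protease inhibitor gene sci1 by 5.79 ± 0.14. Both chitinases were lower at severe stress (3.95 and 10.76) than at recovery. At moderate stress, however, chiA was at 8.61 and chn1 at 13.40, both above the control. pr5 was at 12.85 at moderate and 9.51 at severe stress, and recovery minus moderate stress was 0.16 (adjusted p = 0.882). sci1 was at 14.12 and 13.88 under stress, and recovery minus these stages was -1.61 and -1.37. The rises of chn1, pr5 and sci1 were thus not confined to recovery. The rises of chiA and chn1 in HKI1105 were 6.06 and 4.08, and the differences between the lines were -0.32 ± 0.63 (adjusted p = 0.818) and 0.27 ± 0.14 (adjusted p = 0.152).

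Benzoxazinoids are the defence compounds of young maize, made from indole by a chain of enzymes. bx1, which makes indole, fell from 10.97 and 10.68 to 9.92 and 9.93, while BX3 rose from 10.31 and 10.39 to 13.18 and 13.21 and BX4 from 9.53 and 9.51 to 12.17 and 12.02, both cytochrome P450 enzymes of the chain. BX14, a methyltransferase that acts at its end, rose by 4.80 ± 0.22. In total 6 of 11 probe sets rose and 2 fell, against 23.2% and 23.5% of all probe sets, and 5 of the 11 were named by the study. At severe stress bx1 and BX3 were at 3.90 and 7.51.

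For jasmonate, a hormone of wounding made from lipid peroxides, 5 of 18 probe sets rose and 6 fell, shares near the 23.2% and 23.5% of all probe sets. lox10, a 13-lipoxygenase of leaf volatiles and jasmonate, rose from 5.83 and 5.75 to 10.63 and 10.62. opr1, for an oxophytodienoate reductase, rose by 3.51 ± 0.05. Both probe sets of lox1, a 9-lipoxygenase, fell by 1.52 and 1.63, and in HKI1105 they rose by 5.20 and 5.18.

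Wall proteins and wall-loosening enzymes were among the largest falls. Expansins loosen the wall so that a cell can lengthen, and piip1 is a root gene named for its induction by physical impedance. Of 18 probe sets for structural wall proteins, 14 fell, none rose and 10 were down 5-fold or more, with a median change of -3.14, against 23.5% and 3.69% of all probe sets. Names or descriptions of 9 of the 18 come from the study's tables of its calls. The probe set of piip1 with the largest change stood at 13.06 and 13.03 in control roots and at 5.31 and 6.11 at recovery (change -7.33 ± 0.22, adjusted p = 1.90e-08). It had kept 13.14 at moderate and 11.86 at severe stress.

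Of the 6 piip1 probe sets 4 were down, with changes of -4.86 to -7.33, and the other 2 did not pass the test. Several of them are shared with similar sequences by design, so the members of this family may be mixed. A gene described as a cortical cell delineating protein precursor fell from a mean of 13.95 to 9.31. The glycine-rich wall protein gene grp3 fell from 12.84 and 12.77 to 10.44 and 10.50, and an arabinogalactan protein gene from a mean of 11.12 to 7.17.

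Of 20 probe sets for expansins and other wall-loosening enzymes, 13 fell and 2 rose, against 23.5% and 23.2% of all probe sets. Of the 13, all were expansins but exg1, an exoglucanase, and 8 were down 5-fold or more, against 3.69% of all. expB4 was at 8.63 and 8.50 in control roots and at 2.16 and 2.39 at recovery (change -6.29 ± 0.12, adjusted p = 1.71e-09), with 7.43 and 4.36 at the stress stages between. expa1 fell from 9.95 and 9.96 to 5.51 and 5.43, and expB3 from 6.74 and 6.76 to 2.46 and 2.76. Both had been higher than the control at moderate stress, at 11.06 and 9.47. The xyloglucan endotransglycosylase gene xet1, whose enzyme cuts and rejoins wall polymers and is known from the gas spaces of flooded maize roots, went the other way, from 8.27 and 8.37 to 12.51 and 12.45 (change 4.16 ± 0.07). Its level at severe stress, 12.21, was 0.27 lower than at recovery (adjusted p = 0.00984).

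Genes of cellulose synthesis were lower too. Among the probe sets of cellulose and callose synthesis 14 of 15 fell and none rose, by amounts that were mostly under 5-fold, and the median change was -1.502. Over all probe sets 23.5% fell and 23.2% rose. cesa8, which serves the primary wall, fell from 12.34 and 12.28 to 9.68 and 9.29, and cesa7, of the same kind, fell by 1.64 ± 0.09. cesa10 and cesa11, of the secondary wall, fell by 0.95 and 1.07 on the log2 scale. UGlcAE, for the epimerase that makes the galacturonic acid units of pectin, fell from 9.53 and 9.72 to 3.08 and 3.22. A further probe set of the gene fell by 2.17.

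Some genes of the cytoskeleton, DNA replication and the cell cycle fell. An actin probe set was at 11.84 and 11.83 in control roots and at 5.57 and 5.34 at recovery (change -6.38 ± 0.14), while a further probe set of the name fell by only 1.53. Profilin, an actin-binding protein, went from 8.83 and 8.44 to 2.94 and 2.97. Among 30 probe sets for tubulins, actin and their partners 15 fell, 2 rose and 13 did not pass, with a median change of -0.46, while 23.5% of all probe sets fell. The 4 probe sets of the beta-tubulin gene tub6 fell by 1.09 to 4.13. The names actin and Profilin come from the study's gene models.

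Of 30 probe sets for histones, replication and the cell cycle, 16 fell, 1 rose, 13 did not pass and 3 were down 5-fold or more (median change -0.70). Over all probe sets 23.5% fell, 23.2% rose and 3.69% were down 5-fold or more. The cyclin gene cyc3 fell from 7.66 and 8.04 to 5.16 and 4.15. orc2, a subunit of the complex that marks replication origins, fell from 6.69 and 6.81 to 3.70 and 4.34. MCM7, a part of the replicative helicase, fell by 2.12 ± 0.18, and pcna2, the sliding clamp of the DNA polymerases, by 1.30 ± 0.21. In HKI1105 19 of the same 30 rose, where 4738 of all 17621 probe sets did. AN3, a coactivator of growth-regulating factors in dividing tissue, was at 6.73 and 7.16 in the control and at 2.01 and 2.42 at recovery (change -4.73 ± 0.30).

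Ribosomal protein and translation genes changed by small amounts, with none of 37 probe sets past 5-fold and a median change of -0.05. Of the 37, 6 rose and 11 fell (7 with only the 4 arrays of the comparison). Over all probe sets 23.2% rose and 23.5% fell. fae1, a fatty acid elongase gene for very long chains, fell from 11.28 and 11.17 to 5.84 and 6.14 (change -5.23 ± 0.48). In its list of lipid transfer proteins and fatty acid enzymes 7 of 15 fell, none rose and 4 were down 5-fold or more. The shares over all probe sets were 23.5%, 23.2% and 3.69%. A nonspecific lipid transfer protein gene fell from a mean of 11.52 to 3.82.

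**Figure D4:**
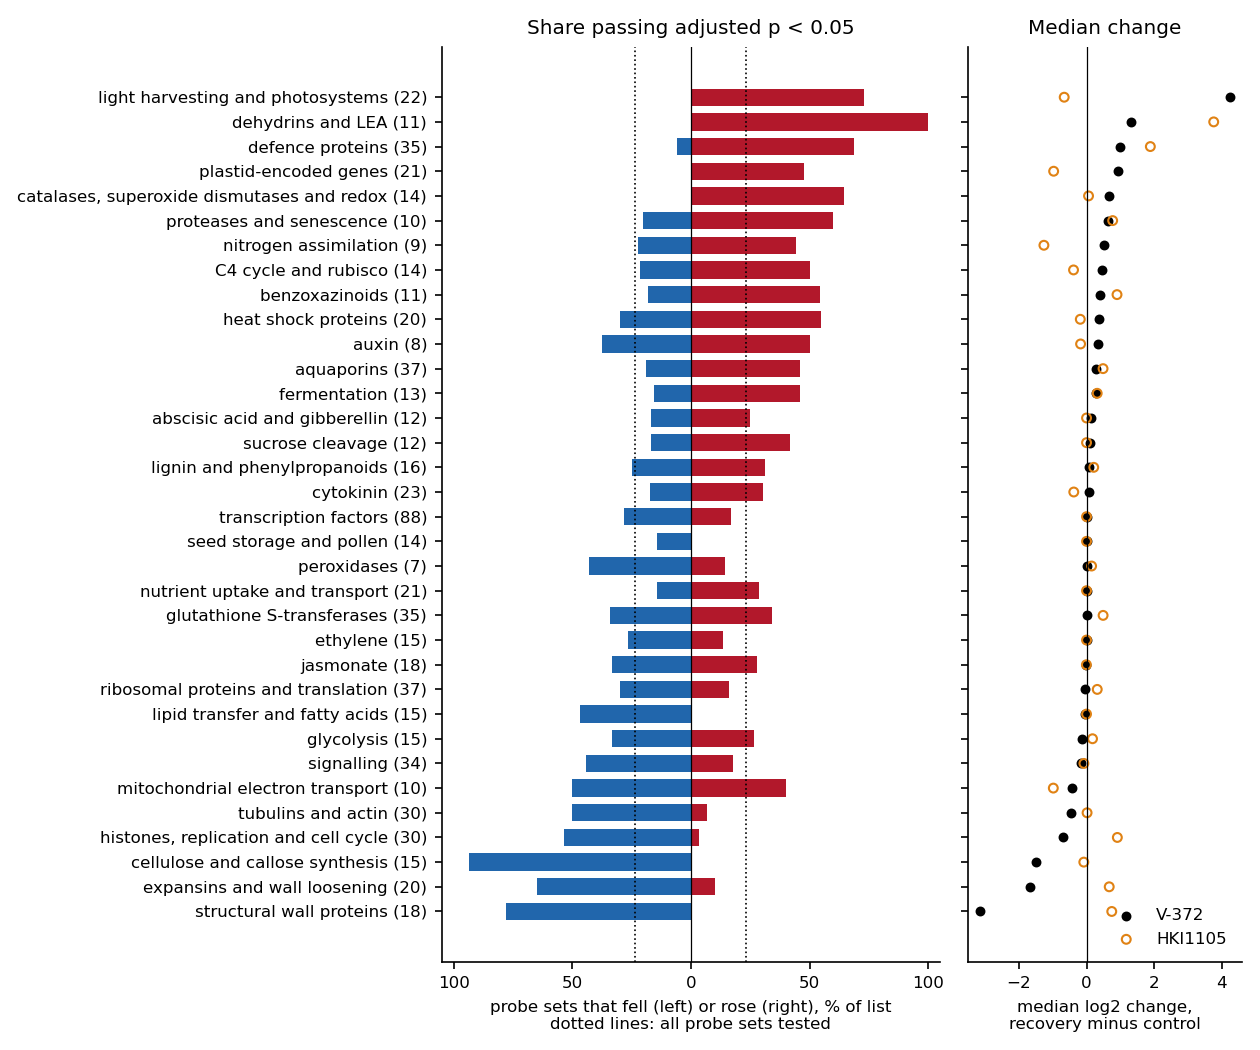
Left, the share of each gene list (number of probe sets in brackets) that fell (blue, to the left) or rose (red, to the right) at an adjusted p under 0.05, in percent, with dotted lines at the 23.5% and 23.2% of all probe sets. Right, the median log2 change of each list in V-372 (filled) and HKI1105 (open). Lists of 7 or more probe sets are shown. Light harvesting and dehydrins stand at the top, and cellulose synthesis, expansins and structural wall proteins at the bottom.

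Transcription factors were mixed. Of 88 probe sets 15 rose (17%) and 25 fell (28%), against 23.2% and 23.5% of all probe sets. Past 5-fold, 2 were up and 10 down, against 2.95% and 3.69% of all, and the median change was 0. bHLH108, a helix-loop-helix factor, stood at 8.35 and 8.27 in control roots and at 2.01 on both recovery arrays, as at both stress stages. bZIP89, a leucine zipper factor, was at 8.62 and 8.86 in control roots, 8.35 at moderate and 6.44 at severe stress, and 2.25 and 2.63 at recovery. LOB21, a member of the lateral organ boundary family, fell by 3.89 ± 0.24. GBF1, a G-box binding factor, rose by 3.54. Names given by the study account for 26 of the 88.

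Auxin, which directs root growth, was represented by 8 probe sets, of which 4 rose and 3 fell. Over all probe sets 23.2% rose, 23.5% fell and 3.69% were down 5-fold or more. IAA12, an auxin response repressor, fell from 9.92 and 9.73 to 5.55 and 5.82. aic1, an influx carrier related to AUX1, fell from 8.02 and 8.08 to 4.85 and 5.44, and AUX14 fell by 3.33 ± 0.17. These 3 were down 5-fold or more, 5 of the 8 names are the study's, and abp1, an auxin-binding protein, rose by 1.98. ROP proteins are switches that guide polar growth. rop3 went from 7.99 and 7.68 to 4.67 and 4.20 and rop6 fell by 2.78, among 34 signalling probe sets of which 6 rose and 15 fell.

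Cytokinin oxidases break down cytokinin. cko2 rose from 5.94 and 5.83 to 10.20 and 10.14 and cko3 from 4.69 and 4.24 to 8.73 and 8.64, whereas CKX4b fell from 11.07 and 11.03 to 8.35 and 8.45. The response regulator crr1, a cytokinin response gene, was at 6.13 and 6.01 against 7.34 and 7.31 in the control, after 2.82 at severe stress. Over the list 7 of 23 probe sets rose and 4 fell, against 23.2% and 23.5% of all probe sets. For ethylene, the gas that builds up in flooded roots, 2 of 15 rose and 4 fell, with 8 of the 15 named by the study. acco20, an ACC oxidase that makes ethylene, rose from 6.86 and 7.02 to 12.58 and 12.78, well above its 3.97 and 5.77 under stress. acs7, an ACC synthase of the step before, fell from 10.09 and 10.11 to 7.36 and 7.54.

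In the oxygen-related genes, some stress-induced transcripts lay above the control at recovery and others did not. Fermentation turns pyruvate into ethanol through pyruvate decarboxylase and alcohol dehydrogenase. adh1 was at 13.62 and 13.50 in control roots and 13.54 and 13.53 at recovery (change -0.03 ± 0.07, adjusted p = 0.985). pdc1 was below the control, 6.54 and 6.64 against 8.18 and 8.11, after 12.84 at moderate stress. pdc2 was above it, with 10.53 and 10.61 against 7.90 and 8.21 on its brightest probe set, after 12.71 at moderate and 7.34 at severe stress. aldh5, an aldehyde dehydrogenase, rose by 3.05 ± 0.25, and in all 6 of 13 fermentation probe sets rose, 2 fell and 3 were up 5-fold or more. Of 15 glycolysis probe sets 4 rose and 5 fell, none past 5-fold. The shares over all probe sets were 23.2% risen, 23.5% fallen and 2.95% up 5-fold or more.

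Plant haemoglobins scavenge nitric oxide at low oxygen. Hb2 was at 6.67 and 6.79 in control roots, 2.06 at severe stress and 9.13 and 9.39 at recovery (change 2.53 ± 0.15). The rise over severe stress was 7.20 (adjusted p = 1.51e-09). GLB1, the other haemoglobin gene, rose by 1.16 ± 0.19 and had been at 4.51 at severe stress. aox3, an alternative oxidase of mitochondria, went from 6.35 and 6.51 to 9.22 at moderate and 3.15 at severe stress and to 9.52 and 9.63 at recovery. Hb2 had been at 5.57 at moderate stress, below its control. Among sucrose-cleaving enzymes, sus2, a sucrose synthase, rose from 5.12 and 5.11 to 9.22 and 9.10, and the vacuolar invertase gene ivr2 fell from 11.23 and 11.09 to 6.90 and 6.80. In all, 5 of 12 sucrose probe sets rose and 2 fell, against 23.2% and 23.5% of all probe sets.

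Aquaporins, the water channels of the plasma membrane (PIP) and vacuole (TIP), split by gene. Of 37 probe sets 17 rose and 7 fell, against 23.2% and 23.5% of all probe sets. tip3a, a channel known from seed storage vacuoles, was at 2.77 and 2.75 in control roots, stayed at 2.75 and 2.31 under stress and reached 8.23 and 8.55 at recovery (change 5.63 ± 0.40). pip1f rose from 2.02 and 2.33 to 7.44 and 7.56, and pip2-5 from 9.97 and 9.87 to 12.38 and 12.42. The silicon channel gene Lsi1, also called NIP2-1, rose by 2.77 and 2.75 on 2 probe sets and its remaining probe set lay at the floor. tip2b, a root vacuolar channel, fell from 12.49 and 12.47 to 9.85 on both arrays. pip2b fell by 1.89.

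For nas1, whose nicotianamine synthase makes a chelator of iron and zinc, the level stood at 8.78 and 8.69 in control roots and at the floor of 2.01 on both recovery arrays. It had lain at the floor at moderate and severe stress too. Another probe set of nas1 fell by 6.29, and its remaining 2 were at the floor in both groups. Of 21 probe sets for nutrient transport 12 were near the floor in both groups, 6 rose and 3 fell. Over all probe sets 23.2% rose and 23.5% fell. gln2, a glutamine synthetase, rose from 2.53 and 3.28 to 8.16 and 8.47, and asn1, an asparagine synthetase, from 6.98 and 6.68 to 9.74 and 9.72. gdh1, for glutamate dehydrogenase, fell by 2.10 ± 0.13, and 4 of 9 probe sets for nitrogen assimilation rose.

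Of 14 probe sets for catalases, superoxide dismutases and thioredoxins, which remove reactive oxygen or keep proteins reduced, 9 rose and none fell, against 23.2% and 23.5% of all probe sets. CAT3, a catalase, rose from 10.10 and 9.88 to 12.50 and 12.31, having been at 7.89 and 8.83 under stress. The largest change of the list was in trm1, an m-type thioredoxin of chloroplasts, from 4.00 and 3.56 to 9.56 and 9.58. Of 7 peroxidase probe sets 1 rose and 3 fell. pox2, a class III peroxidase, rose from 8.80 and 8.51 to 11.90 and 11.73, after 4.93 at severe stress.

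Glutathione S-transferases, which attach glutathione to toxic compounds, moved both ways in equal number. Of 35 probe sets 12 rose and 12 fell, 4 were up and 5 down 5-fold or more, and the median change was 0. The shares over all probe sets were 23.2%, 23.5%, 2.95% and 3.69% in the same order. gst12 stood at 8.91 and 9.10 in the control, 7.95 and 8.54 under stress and 2.99 and 3.07 at recovery. GST38 fell by 4.19 ± 0.18. GST39 rose from 3.56 and 3.68 to 9.09 and 8.97, and gst19 from 7.33 and 7.27 to 11.39 and 11.29.

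Among heat shock proteins, which keep other proteins folded, 2 small ones and 3 large chaperones moved in opposite directions. hsp18a rose from 9.49 and 9.53 to 12.38 and 12.37, and hsp18f, of the same small class, by 2.81 ± 0.22. bip1, the chaperone of the endoplasmic reticulum, fell from 13.69 and 13.59 to 12.48 and 12.43, and the mitochondrial chaperonin genes CPN60I and CPN60II also fell. In total 11 of 20 probe sets rose and 6 fell, against 23.2% and 23.5% of all probe sets. Both hsp18a and hsp18f fell in HKI1105, by 2.28 and 1.17.

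The protease genes see2b and ccp1, of the class that degrades protein in ageing tissue, rose by 1.78 ± 0.11 and 1.66 ± 0.09, and the list of proteases and senescence had 6 of 10 higher and 2 lower. Among the lower ones was mpao1, a polyamine oxidase that releases hydrogen peroxide in the wall, from 10.43 and 10.32 to 5.38 and 5.60. At severe stress it had been at 10.54. sat1 rose from the floor of 2.01 on both arrays to 8.77 and 8.66. Of 16 lignin and phenylpropanoid probe sets 5 rose and 4 fell, of 12 for abscisic acid and gibberellin 3 rose and 2 fell, and of 10 for mitochondrial electron transport 4 rose and 5 fell. Without either control array or without recovery replicate 2, 3 of these 10 fell. For each of these lists the shares over all probe sets were 23.2% risen and 23.5% fallen. The seed storage and pollen list had 12 of 14 probe sets near the floor in both groups and 2 that fell.

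The recovery response of V-372 was then set against that of HKI1105, whose 2 recovery and 2 control arrays are shared with no V-372 group. In HKI1105, 559 probe sets (3.17%) were up and 385 (2.18%) down at recovery. In both lines 133 were up, which is 25.6% of those up in V-372 and 23.8% of those up in HKI1105, and 34 were down (5.23% and 8.83%). A further 155 of the probe sets down in V-372 (23.8%) were up in HKI1105, and 24 of those up (4.62%) were down there. The difference of the responses, tested as an interaction, was higher in V-372 for 692 probe sets (3.93%) and lower for 980 (5.56%). It was higher for 296 (56.9%) of the probe sets up in V-372 and lower for 528 (81.2%) of those down. The tested difference contains the V-372 change by which these probe sets were chosen. High shares are therefore partly built in and are no separate evidence of a line difference.

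**Figure D5:**
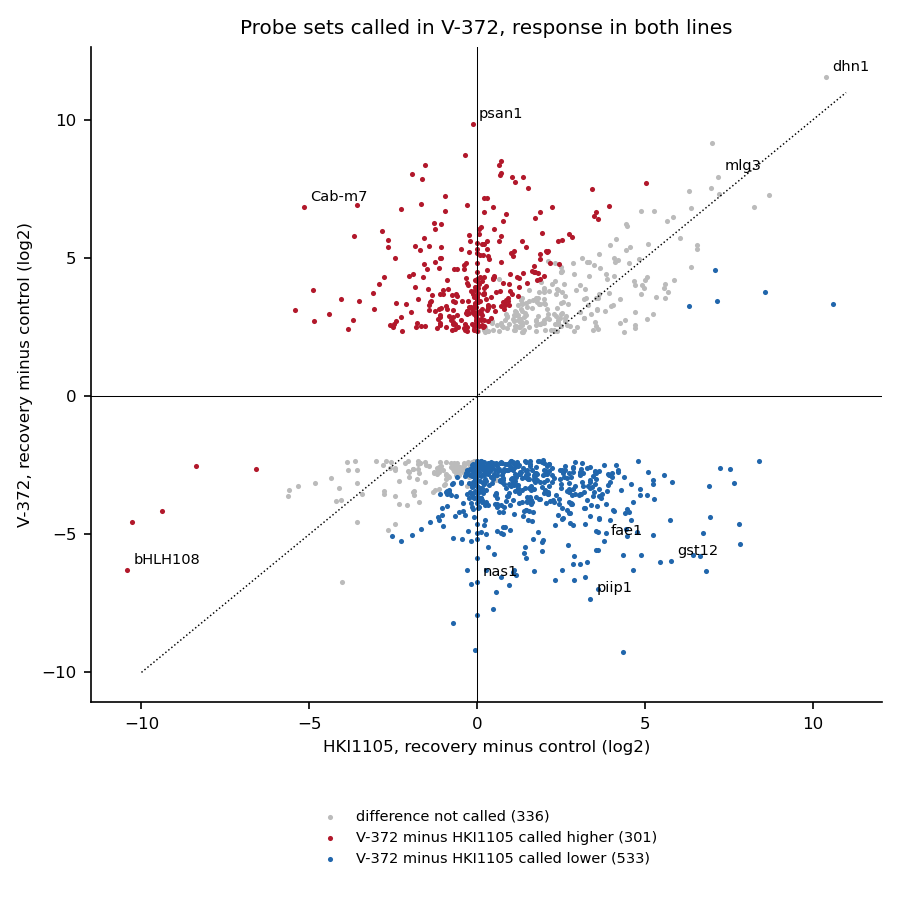
Change from control to recovery in HKI1105 (x axis, log2) and V-372 (y axis, log2) of the 1170 probe sets called in V-372. Red and blue points are those whose response was called higher or lower in V-372 than in HKI1105, and the dotted line marks equal responses. dhn1 and mlg3 lie near the line, the photosystem genes above the centre and piip1 and gst12 in the lower right.

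The levels in control roots were also set side by side. Over the 650 probe sets down in V-372, the median level was 8.49 in V-372 and 4.70 in HKI1105 control roots, and 4.95 and 6.25 at recovery. Over those up, it was 4.27 and 5.99 in the controls and 8.57 and 7.27 at recovery. The median of all probe sets was 6.93 in HKI1105 control roots and 7.14 in those of V-372. The probe sets were chosen by their V-372 change. A V-372 control level that is high in those down and low in those up comes with that choice. The medians are therefore no test of a line difference before stress. Of the 12 named rises the response differed between the lines for 9 by the same thresholds, and those of dhn1, mlg3 and sat1 did not reach it. All 12 named falls differed, 11 of them with a lower response in V-372. The named genes were chosen for the largest V-372 changes, which are part of the tested difference. Passing was therefore close to built in unless HKI1105 changed in a similar way. In HKI1105 control roots nas1 and expB4 were at 2.01, bZIP89 at 2.17 and gst12 at 2.61, at or within 1 log2 unit of the floor, so no fall could be measured there and the sign of these 4 differences was fixed by the starting level. UGlcAE (6.43), actin (5.90), AN3 (4.10), piip1 (4.09), fae1 (3.98) and Profilin (3.08) started higher. A fall from there to the floor would still be smaller than the fall in V-372, so their sign was fixed too. Of the 11, only mpao1, at 9.41, had room to fall as far as in V-372. bHLH108 was the named fall with a higher response in V-372, since it fell from 12.44 to 2.01 in HKI1105.

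The same difference was counted over lists. It was lower in V-372 for 12 of 18 structural wall probe sets and 10 of 20 expansins and wall-loosening enzymes. The same held for 12 of 30 for histones, replication and the cell cycle, against 5.56% of all. Of 15 cellulose and callose probe sets, of which 14 fell in V-372, it was lower for 1. It was higher for 16 of 22 light harvesting probe sets, against 3.93%. The lists were chosen with earlier results of these data known, and their V-372 change is part of the tested difference. These shares are therefore no separate evidence of a line difference. piip1 is an example of a lower response, with levels of 4.09 in control and 7.46 in recovery roots of HKI1105. The same probe set went from 13.04 to 5.71 in V-372. In HKI1105 control and recovery roots lhcb7 was at 9.48 and 7.94, psan1 at 5.71 and 5.58, and Cab-m7 at 8.13 and 2.98.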

How the data were processed

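The authors hybridised root RNA to the Affymetrix GeneChip Maize Genome Array and, per the labels and the methods, read the scanner files with the affy package in R and processed them with GCRMA, whose version is not given in the sources used here. The deposited values are log2 GCRMA levels of 17734 probe sets on 16 arrays. GCRMA sets dim probe sets to a floor, so folds of dim genes are uncertain, and the number of arrays limits the precision. Leaving out 113 Affymetrix control probe sets, 17621 were fitted with limma 3.58.1 in R 4.3.3, with 1 mean per line and stage, 8 residual degrees of freedom and Benjamini-Hochberg adjustment over all probe sets. Calls used the methods' thresholds, a limma p of at most 0.001 and a change of 5-fold.

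Of 1453 probe sets in the platform annotation 1452 had 1 gene symbol, and 1377 were matched to RefSeq genes. In total 1271 tested probe sets were named from it, 235 from the study's gene models and 44 by description. Named genes were the 12 largest rises and 12 largest falls among calls with 1 gene name, with 1 probe set per gene, and the largest changes of each list. The gene lists, members and rules were chosen with earlier results of these data known. The fit was tested on simulated data. Alternatives were other arrays in the fit, scaling, low values, variance prior, thresholds, replicate block and leaving out arrays.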

Additional observations from a re-analysis of the deposited data

Results flagged for a closer look

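For 21 of the 24 named genes the recovery response of V-372 differed from that of HKI1105 by limma's interaction test at the thresholds of the report. The genes were chosen for the largest V-372 changes, and that change is part of the tested difference. Passing was therefore close to built in unless HKI1105 changed in a similar way. Differences below are the V-372 response minus the HKI1105 response on the log2 scale.

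For the photosynthesis genes the response was higher in V-372. The difference was 9.996 for psan1, 9.93 for lhcb7, 9.51 for Lhcb5-2, 6.60 for lhcb5, 8.21 for cp29, 6.86 for psah1, 12.01 for Cab-m7 and 5.57 for OEE3. Cab-m7, a chlorophyll a/b binding protein gene, fell by 5.15 in HKI1105 and rose by 6.86 in V-372. The defence gene prp4 rose in both lines, by 6.42 and 3.61, with a difference of 2.81 (adjusted p = 0.00211). bHLH108 fell in both lines and its difference was 4.13.

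For the other named falls the response was lower in V-372. The difference was -10.70 for piip1, -8.82 for the expansin gene expB4, -7.64 for UGlcAE, -7.44 for actin, -7.09 for Profilin, -5.51 for AN3 and -9.03 for fae1. For gst12 it was -11.77, the farthest from 0 among the named falls, and for bZIP89 -6.56, nas1 -6.72 and mpao1 -4.60. In HKI1105 control roots the median level of the probe sets down in V-372 was 4.70, against 8.49 in V-372 control roots. Those probe sets were chosen by their fall in V-372, so a high V-372 control level comes with the choice. HKI1105 control roots had nas1 and expB4 at 2.01, bZIP89 at 2.17 and gst12 at 2.61, at or within 1 log2 unit of the floor, where a fall cannot be measured. For nas1 and bZIP89, whose HKI1105 changes were -0.01 and 0.26, the difference therefore largely restates the fall of V-372 itself. From the HKI1105 control levels of piip1, UGlcAE, actin, Profilin, AN3 and fae1, a fall to the floor would be smaller than that in V-372. The sign was thus fixed for these genes too. For mpao1, at 9.41 in HKI1105 control roots, and for the size of the other differences, the part of the starting level was not tested.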

How the results depend on the processing

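Each count of calls was taken again under alternative settings, some of which changed only the threshold. In 67 of 72 pairs of a count and a setting the count kept within 1.5 times its main value. The other 5 were these. With 2-fold in place of 5-fold, the counts for V-372 were 1579 up and 1742 down, and the response was higher in V-372 for 1807 and lower for 2249. With only the 4 arrays of the comparison, 410 were down, of which 409 were among the 650, and 371 were up. That fit has fewer arrays behind the spread. Leaving out 1 array at a time gave 522 to 536 up, 606 to 658 down, 647 to 689 responses higher in V-372 and 945 to 987 lower. Leaving out the HKI1105 control arrays or the V-372 severe arrays, chosen after seeing the data, gave 517 and 518 up and 652 and 650 down.

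The numbers of the arrays did not pair them, since deviations of same-numbered V-372 control and recovery arrays correlated at 0.108 and those of all pairs of groups at -0.191 to 0.227. With the replicate block, 519 were up and 649 down, and the response was higher for 677 and lower for 972. Of 336 pairs of a named gene and an alternative setting 334 kept direction and threshold. Lhcb5-2 (7.87) and AN3 (-4.73) missed the p threshold in limma with only the 4 arrays, at an adjusted p of 0.00877 and 0.00893. No result turned direction. Of 980 list counts 18 moved by over 1.5 times. Among them, with only the 4 arrays, the plastid-encoded probe sets that rose went from 10 to 6 and the ribosomal ones that fell from 11 to 7, and the mitochondrial ones that fell went from 5 to 3, there and without either V-372 control array or recovery replicate 2.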
